A study of Mus musculus with 6 samples.

Results

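Heat shock chaperones were examined in the lungs of adult female mice from 2 outcrosses to FVB/NJ, by way of 10 genes: Hspa1a, Hspa1b, Hspa8, Hsph1, Hspb1, Dnaja1, Dnajb1, Hspd1, Hspe1 and Hsp90aa1. The members are all probe sets that the platform annotation gives exactly 1 of these gene symbols, 25 of 45037 probe sets and 10 of 18193 named genes. The genes were chosen with their signals on these same arrays, and the differences between the groups, already known, so their values are given as a description and without a test. F1 mice of AKR/J and FVB/NJ, here AKR_F1, were set against F1 mice of DBA/2J and FVB/NJ, here DBA_F1, with 3 arrays for either cross. Every animal thus carried a chromosome set of FVB/NJ, and the groups differed in the set from the other inbred parent. All were killed by cervical dislocation while anaesthetised with Avertin, the lungs were frozen in liquid nitrogen, and the aim was to find basal differences in expression. The labels name no other treatment. They also leave unsaid if every array came from its own animal, so p-values measure only the spread between these samples, which may be technical.

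Heat shock chaperones bind unfolded proteins and help them fold, assemble or reach degradation. In the Hsp70 cycle a J-domain protein delivers the client and starts ATP hydrolysis, Hsp70 holds the client, and an exchange factor such as Hsph1 lets it go, while Hsp90 acts later on signalling proteins. Some members, such as Hspa8, are made in unstressed cells at all times, whereas Hspa1a and Hspa1b are known as strongly inducible genes that heat shock factor Hsf1 switches on within minutes of protein-damaging stress. Hsf1 binds heat shock elements, which are alternating GAA and TTC units spaced by a pair of bases.

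The promoters were searched for exact runs of such units close to the start. Promoter windows of RefSeq (GRCm38.p6), from 250 bases before to 50 bases after an annotated start, were at hand for 8 of the 10 members (13 windows in all) and not used here for Hspa8 and Hsp90aa1. A run of at least 2 units, GAANNTTC or TTCNNGAA, each of which reads the same on both strands, lay in a window of 7 of the 8, against 17% of 27025 genes. A run of at least 3 units, GAANNTTCNNGAA or its reverse complement TTCNNGAANNTTC, lay in a window of 3 of the 8 (Hsph1, Hspd1 and Hspe1), against 0.662% of genes. A run of 3 units contains runs of 2, so these counts overlap. Nor are the members independent, since Hspd1 and Hspe1 share an element and Hspa1a and Hspa1b have nearly the same promoter. Genes with several windows also had more places to match. Over all 32851 windows the shares were 15.1% and 0.603%. A match describes the letters alone and is not shown to be a bound site. Units with a mismatched base were not counted, so a window without a match, or with a short one, may hold a longer element. The stretches below hold matches upstream of the start, in capitals. A link between the matches and the levels on the arrays was not tested.
Hspa1a, chr17:34972207-34972306, minus strand, 150 to 51 bases before the start: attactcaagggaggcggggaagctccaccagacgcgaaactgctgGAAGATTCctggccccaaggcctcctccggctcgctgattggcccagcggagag
Hspa1b, chr17:34959289-34959388, minus strand, 150 to 51 bases before the start: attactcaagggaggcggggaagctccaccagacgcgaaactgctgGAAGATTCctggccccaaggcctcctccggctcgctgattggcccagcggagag
Hspb1, chr5:135887769-135887868, plus strand, 150 to 51 bases before the start: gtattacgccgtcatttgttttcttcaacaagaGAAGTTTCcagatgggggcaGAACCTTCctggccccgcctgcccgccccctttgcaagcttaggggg
Dnaja1, chr4:40722318-40722417, plus strand, 150 to 51 bases before the first of 3 starts: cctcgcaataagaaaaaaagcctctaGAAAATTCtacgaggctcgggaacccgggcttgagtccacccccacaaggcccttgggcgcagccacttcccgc
Hsph1, chr5:149636351-149636380, minus strand: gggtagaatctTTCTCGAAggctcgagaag
Hspe1, chr1:55088053-55088082, plus strand: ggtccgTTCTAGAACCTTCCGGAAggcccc

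In the 100 bases shown Hspa1a and Hspa1b were identical, and 247 of the 250 bases before their starts were the same. These 2 genes are neighbours in the class III region of the major histocompatibility complex, next to Hspa1l, and encode nearly the same Hsp70 protein, so hybridisation to a probe set named for one cannot be taken as specific to it. Hspd1 and Hspe1, the mitochondrial Hsp60 and Hsp10, lie on opposite strands, and the element printed for Hspe1 is also the one that lies 144 to 127 bases before 1 of the 2 annotated starts of Hspd1. From that start the genes face away from each other with 215 bases between the starts, whereas the other Hspd1 start lies past that of Hspe1, so that from it the transcripts overlap. The element printed for Hspe1 joins overlapping 3-unit runs, so its full run is longer than 3 units. The 3-unit run of Hsph1 lay just inside the transcribed part, 37 to 49 bases after the upstream and 16 to 28 bases after the downstream of its 2 starts. For Dnajb1, the J-domain partner of inducible Hsp70, neither of its 2 windows held an exact run of 2 units.

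**Figure D1:**
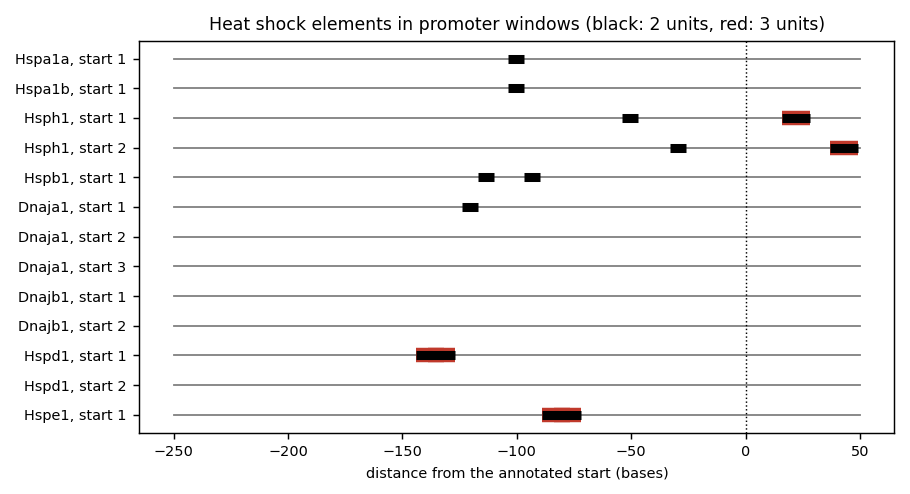
Positions of exact runs of heat shock element units in the promoter windows of 8 chaperone genes, in bases from each annotated start. Each start has a row, with a grey line for the window, black for runs of 2 units and red for runs of 3. Hspa1a and Hspa1b carry a run 104 to 97 bases before the start, and both Dnajb1 rows are empty. Hspd1 and Hspe1 share overlapping runs of 3 units upstream, which join into a longer run.

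Signals are log2 values, with 1 value per probe set and array. Of the 25 member probe sets 23 were tested. The other 2, both of Hsp90aa1, had means of 3.25 and 2.78, under the level of 4.72 below which probe sets were left out. All probe sets were kept apart, since probe sets of 1 gene can read different transcripts and levels of different probe sets are not comparable.

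The inducible Hsp70 genes varied the most, and they varied among arrays of the same cross. The probe set of Hspa1a read 6.76, 7.62 and 10.37 in AKR_F1 and 6.25, 8.16 and 7.19 in DBA_F1, given here and below in the order of replicates 1 to 3. AKR_F1 replicate 3 stood far above all other arrays, DBA_F1 replicate 2 was second, and the groups overlapped. From the lowest to the highest array this was a 17.5-fold span, and 3.77-fold among the other 5 arrays when AKR_F1 replicate 3 was left aside. The brightest of 3 Hspa1b probe sets (1452318_a_at) read 8.99, 10.16 and 11.91 in AKR_F1 and 8.34, 10.22 and 8.96 in DBA_F1, an 11.9-fold span. The order of the arrays was nearly that of Hspa1a, with AKR_F1 replicate 3 highest and DBA_F1 replicate 1 lowest on all 3 Hspa1b probe sets. The other 2 Hspa1b probe sets spanned 13.0-fold and 13.1-fold.

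Dnajb1, which delivers clients to inducible Hsp70, had the same high array. Its probe set 1416756_at read 9.00, 9.02 and 10.34 in AKR_F1 and 8.87, 9.43 and 9.08 in DBA_F1. Thus AKR_F1 replicate 3 was 2.52-fold above the mean of the other 2 AKR_F1 arrays, against 9.05-fold for Hspa1a and 5.05-fold for Hspa1b, and DBA_F1 replicate 2 was again the highest of its group. One probe set named for Hspa8 (1431182_at) also followed this pattern, with 5.82, 6.84 and 7.87 in AKR_F1 and 4.63, 7.08 and 6.81 in DBA_F1. It spanned 9.43-fold, against 1.31-fold to 1.52-fold for the other 3 Hspa8 probe sets, which were highest on AKR_F1 replicate 2. DBA_F1 replicate 1 was lowest on each Hspa8 probe set, and the lowest Pearson r between any pair of them was 0.58. The lowest value of 1431182_at lay under the filter level. Its difference of 0.67 ± 0.74 became 0.15 with AKR_F1 replicate 3 left out, -0.10 with DBA_F1 replicate 1 left out, 1.18 with AKR_F1 replicate 1 left out and 1.12 with DBA_F1 replicate 2 left out.

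**Figure D2:**
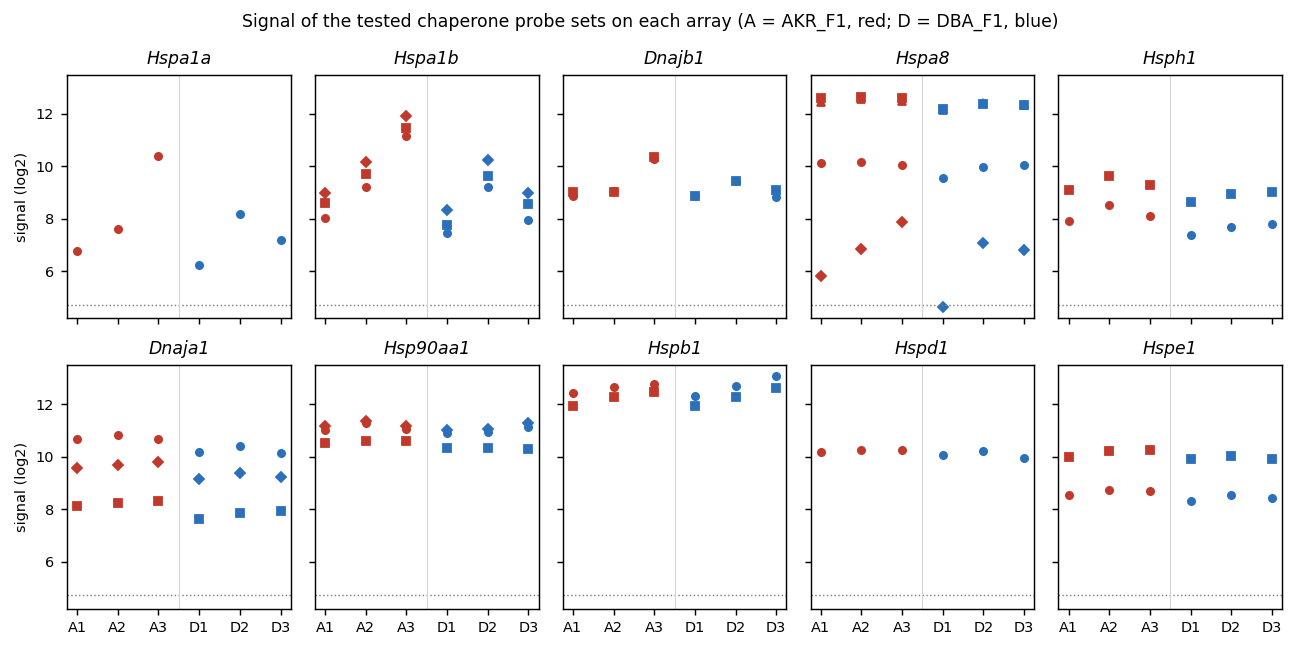
Signal (log2) of the 23 tested chaperone probe sets on each array, 1 panel per gene, with a marker shape per probe set, AKR_F1 (A) in red, DBA_F1 (D) in blue and the filter level of 4.72 dotted. Hspa1a and Hspa1b spread over several log2 units with the highest value on AKR_F1 replicate 3, while most other genes stay within 1 unit.

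Averaged by group, Hspa1a was 8.25 ± 1.9 in AKR_F1 and 7.20 ± 0.96 in DBA_F1 (SD, n = 3 each). The difference, AKR_F1 minus DBA_F1 as for all differences here, was log2 1.05 ± 0.92 (moderated standard error, SE), and without AKR_F1 replicate 3 it was -0.01. For Hspa1b the probe sets differed by 1.18 ± 0.76 to 1.28 ± 0.75, and by 0.40 to 0.50 without that array. Dnajb1 differed by 0.33 ± 0.36, and by -0.12 without it. Other arrays moved them too. Leaving out DBA_F1 replicate 1 gave 0.58 for Hspa1a, 0.77 for the brightest Hspa1b probe set and 0.20 for Dnajb1. Leaving out AKR_F1 replicate 1 gave 1.80, 1.86 and 0.56 in the same order, and leaving out AKR_F1 replicate 2 gave 0.54 for Dnajb1. The size of these differences thus depended on several arrays, and for Hspa1a and Dnajb1 the sign depended on AKR_F1 replicate 3.

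The spread within groups was then set beside that of all tested probe sets. Hspa1a had a within-group SD of 1.5 log2 units, at percentile 99.8 of 27022 tested probe sets, and the Hspa1b probe sets lay at percentiles 99.6 to 99.7. Dnajb1 reached percentiles 98.7 and 98.8. Hspb1 was also variable for its level, with an SD of 0.29 (percentile 95), where the median of tested probe sets of like brightness was 0.044. The Hsp70 exchange factor Hsph1 stood at percentiles 90.6 and 94.2. Hspd1, Hspe1 and Dnaja1 lay between percentiles 45.0 and 67.7 of all tested probe sets, but higher among those of like brightness. Between 10 and 11 log2 units the median SD was 0.075 and the 75th percentile 0.12. There the brightest probe sets of Dnaja1 and Hspe1 both had an SD of 0.12, and Hspd1 had 0.094. The lowest spread among the members was that of an Hsp90aa1 probe set (1437497_a_at) with an SD of 0.036, at percentile 4.75.

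**Figure D3:**
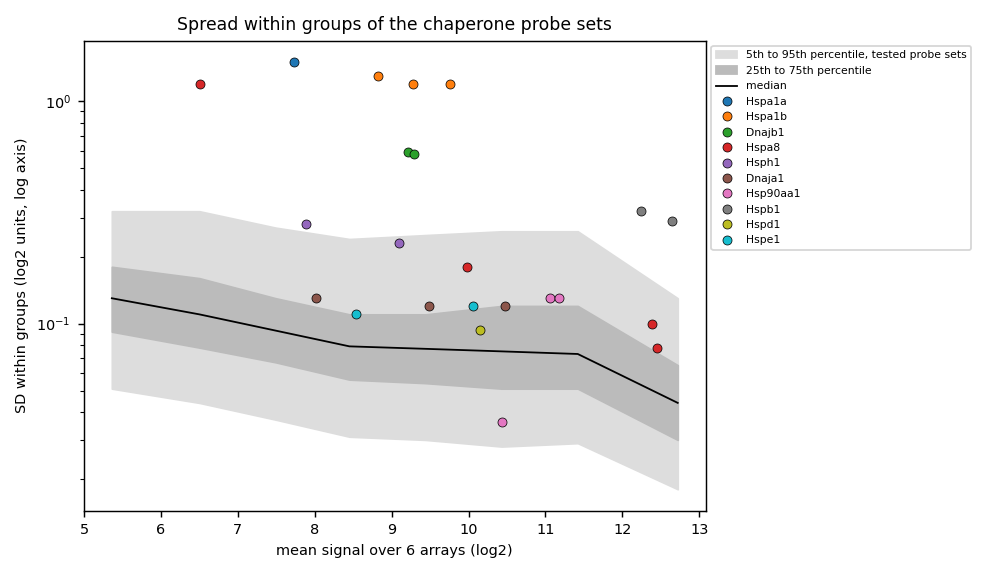
Within-group SD (log2 units, log axis) against mean signal over the 6 arrays for the 23 tested chaperone probe sets, over bands for all tested probe sets of similar level (light grey for the 5th to 95th percentile, dark grey for the 25th to 75th, line for the median). Hspa1a, Hspa1b, Dnajb1, Hspb1 and 1 Hspa8 probe set lie above the light band. Of Hsph1, 1 probe set lies just above it and the other just under its upper edge.

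Hspa8 and its co-chaperones Dnaja1 and Hsph1 had a different pattern. Every AKR_F1 array lay above every DBA_F1 array on 8 of their 9 tested probe sets, against 14.6% of all tested probe sets. The genes are described together because of these values and several probe sets share a gene, so nothing is read from the count. Dnaja1, a J-domain co-chaperone of Hspa8, read 10.66, 10.82 and 10.67 in AKR_F1 and 10.17, 10.41 and 10.14 in DBA_F1 on its brightest probe set. It was 1.39-fold higher in AKR_F1 (log2 0.47 ± 0.083 SE), and its other 2 probe sets both differed by 0.43. With any 1 array left out the brightest probe set differed by 0.42 to 0.56, so no single array set this difference.

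Hsph1 (Hsp110), which resets Hsp70 by exchanging its nucleotide, read 9.11, 9.61 and 9.27 in AKR_F1 and 8.63, 8.93 and 9.00 in DBA_F1 on its brighter probe set. That was 1.39-fold higher in AKR_F1 (0.48 ± 0.15), and 1.48-fold (0.57 ± 0.18) on the other. On both probe sets the groups were apart, but for the brighter one the closest arrays, AKR_F1 replicate 1 and DBA_F1 replicate 3, were near each other. Hspa8, the constitutive Hsp70 of the cytosol, read 12.59, 12.62 and 12.59 in AKR_F1 and 12.17, 12.38 and 12.34 in DBA_F1 on probe set 1420623_x_at. The difference was 0.31 ± 0.058, and 0.18 ± 0.071 and 0.26 ± 0.12 on probe sets 1455789_x_at and 1420622_a_at. Leaving out DBA_F1 replicate 1 lowered the latter pair to 0.11 and 0.12, and on 1420622_a_at the closest arrays read 10.04 and 10.03. These 3 probe sets had non-overlapping groups, with DBA_F1 replicate 1 the lowest array on each, as it was on 19 of the 23 member probe sets. The highest array was AKR_F1 replicate 2 on 11 of the 23, AKR_F1 replicate 3 on 10 and DBA_F1 replicate 3 on 2.

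Hsp90aa1, the inducible cytosolic Hsp90, had probe sets that differed in pattern. Probe set 1437497_a_at read 10.51, 10.61 and 10.58 in AKR_F1 and 10.33, 10.32 and 10.31 in DBA_F1, a narrow gap of 0.25 ± 0.043 with no overlap. Probe set 1438902_a_at read 11.15, 11.37 and 11.18 against 11.01, 11.07 and 11.27, and 1426645_at behaved like it. Both differed by 0.12, and DBA_F1 replicate 3 lay within the AKR_F1 range. Without AKR_F1 replicate 2 they differed by 0.05 and 0.04, and 1438902_a_at differed by 0.06 without DBA_F1 replicate 1 and by 0.20 without DBA_F1 replicate 3. For 1426645_at these values were 0.08 and 0.18.

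Hspb1 (Hsp25), a small heat shock protein that holds unfolded proteins without ATP, showed no gap between the crosses. Its brighter probe set read 12.42, 12.64 and 12.77 in AKR_F1 and 12.32, 12.71 and 13.06 in DBA_F1. DBA_F1 held both the lowest and the highest array, and the difference of -0.09 ± 0.18 was well inside the spread. Its sign turned with the array left out, from -0.28 without DBA_F1 replicate 1 to 0.09 without DBA_F1 replicate 3. DBA_F1 replicate 3, its highest array, was not high for Hspa1a or Hspa1b.

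The mitochondrial chaperonin pair had small differences, with AKR_F1 higher. Hspd1 (Hsp60) read 10.16, 10.26 and 10.26 in AKR_F1 and 10.08, 10.20 and 9.96 in DBA_F1, a difference of 0.15 ± 0.069, which was 0.09 without DBA_F1 replicate 3. Its lid Hspe1 (Hsp10) read 9.99, 10.22 and 10.27 against 9.92, 10.03 and 9.93 on the brighter probe set. The difference there was 0.20 ± 0.080 (0.14 to 0.29 with any 1 array left out), and 0.24 ± 0.081 on the other probe set. In both genes the AKR_F1 means were higher, but AKR_F1 replicate 1 lay below DBA_F1 replicate 2 and the groups overlapped. Probe sets of Hspe1 and Hspd1 may also read their many processed pseudogenes, which these files cannot separate.

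**Figure D4:**
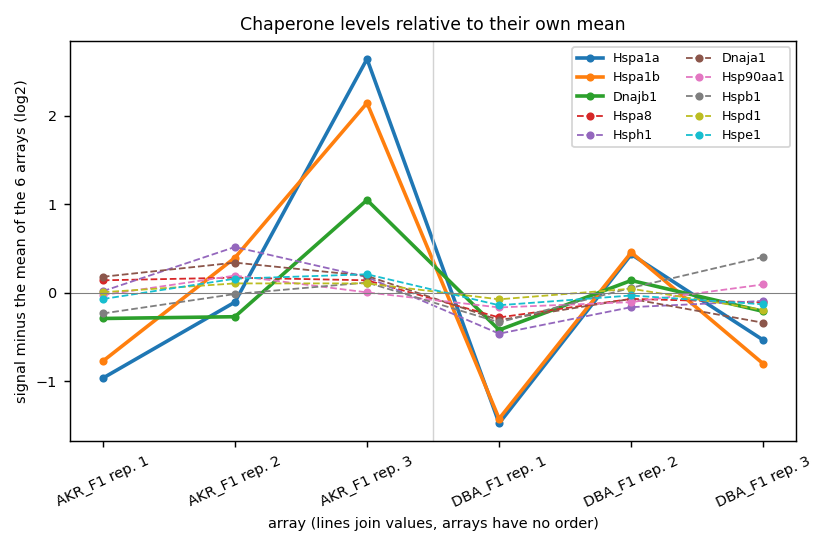
Signal of each chaperone gene (brightest probe set) minus its own mean over the 6 arrays, in log2 units, with lines joining the values of 1 gene and arrays in no order. Hspa1a, Hspa1b and Dnajb1 (thick solid lines) peak together on AKR_F1 replicate 3 and, within DBA_F1, on replicate 2, while the other genes (thin dashed lines) stay closer to their means.

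Across the tested member probe sets, 21 of 23 had a positive difference, with a median of 0.33, against a median of 0.023 over all tested probe sets. The groups did not overlap, with AKR_F1 above, in 9 of 23, where 14.6% of all tested probe sets did so (23.6% in either direction), and DBA_F1 lay above in 0 of 23, against 9.02%. In the limma fit over all tested probe sets (Benjamini-Hochberg adjusted p under 0.05), 3 of the 23 were called, 1 each of Dnaja1, Hspa8 and Hsp90aa1, against 2.62% of all tested probe sets (1.57% called higher in AKR_F1, the direction of all 3). Nothing is read from these counts, since the genes were chosen on this contrast and several probe sets share a gene. With any 1 array left out the count was 0 or 1: it was 0 without AKR_F1 replicate 1, AKR_F1 replicate 2 or DBA_F1 replicate 3, and 1 without any of the other arrays.

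**Figure D5:**
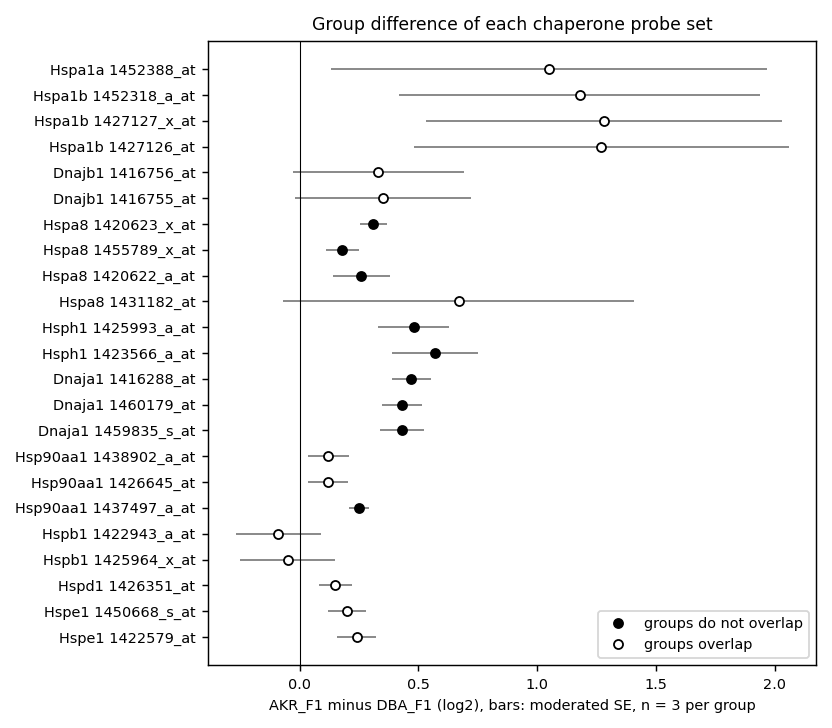
Difference between the groups (AKR_F1 minus DBA_F1, log2) of the 23 tested chaperone probe sets, with the moderated SE as bars, n = 3 per group, filled where the groups do not overlap. The widest bars are those of Hspa1a, Hspa1b and 1 Hspa8 probe set, and the filled points are the probe sets of Dnaja1 and Hsph1, 3 of Hspa8 and 1 of Hsp90aa1.

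The rest of the chaperone network was followed through 8 lists of other chaperones, co-chaperones and heat-inducible genes, 84 genes tested in all. In the same fit 1 of the 84 was called, higher in AKR_F1, against 2.48% of all tested genes (1.42% called with AKR_F1 higher, 1.06% with DBA_F1 higher). At an unadjusted p under 0.05 there were 16 of the 84, against 19.1% of all tested genes. Their median difference was 0.035, against 0.015 over all tested genes. The called gene was Cacybp, a co-chaperone that binds Siah ubiquitin ligases and calcyclin (8.72 ± 0.076 in AKR_F1 and 8.34 ± 0.070 in DBA_F1, SD, n = 3 each, difference 0.38 ± 0.063 SE, limma adjusted p = 0.0307). It read 8.64, 8.79 and 8.73 in AKR_F1 and 8.36, 8.41 and 8.27 in DBA_F1, so that the groups were apart. The call was lost with any array other than AKR_F1 replicate 3 left out (adjusted p from 0.0604 to 0.124).

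Among 11 tested Hsp90 family genes and co-chaperones, Cacybp was the called one, 8 had positive differences, and the median was 0.06. In the other Hsp70 genes and exchange factors 0 of 15 were called by limma (2 at an unadjusted p under 0.05), with a median of 0.03. The largest differences there were those of the endothelial Hsp70 relative Hspa12b (0.44 ± 0.18, limma adjusted p = 0.265) and Stip1, which links Hsp70 to Hsp90 (0.30 ± 0.11, limma adjusted p = 0.221). Hspa12b was called when AKR_F1 replicate 3 was left out. Stip1 read 8.10, 8.39 and 8.13 in AKR_F1 and 7.76, 7.89 and 8.09 in DBA_F1, so the groups were barely apart. Bag3, an exchange factor that is itself heat-inducible, read between 8.53 and 8.62 on all 6 arrays and did not share the peak of Hspa1a.

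Other J-domain proteins had 0 of 14 called by limma (2 at an unadjusted p under 0.05) and a median of 0.05. Dnajb5 (-0.19 ± 0.11, limma adjusted p = 0.385) and the splicing-linked Dnajc8 (0.18 ± 0.042, limma adjusted p = 0.0856) had the largest differences. The TRiC chaperonin and prefoldin, which fold actin and tubulin, had 0 of 14 called by limma (2 at an unadjusted p under 0.05) and a median of 0.05, with Cct8 at 0.13 ± 0.054 and Cct5 at 0.11 ± 0.045. This list also had small spreads, with a median within-group SD percentile of 12.7.

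Mitochondrial chaperones and proteases had 0 of 12 called by limma (2 at an unadjusted p under 0.05) and a median of -0.10, opposite in sign to Hspd1 and Hspe1. The inner-membrane protease subunit Afg3l2 differed by -0.27 ± 0.091 and the ClpXP unfoldase Clpx by -0.22 ± 0.074 (limma adjusted p = 0.183 for both), and Afg3l2 was called without DBA_F1 replicate 3. Of 5 tested heat shock factors and regulators 0 were called by limma (0 at an unadjusted p under 0.05), with the coactivator Ep300 at -0.12 ± 0.056 and Hsf4 at 0.10 ± 0.097. Hsf1 was not analysed here, as no probe set carried it as its only symbol, and Hsf2 was under the filter level. The broader list of heat-inducible genes had 1 of 18 called, again Cacybp, 6 at an unadjusted p under 0.05 and a median of 0.11.

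Other small heat shock proteins had 0 of 6 called by limma (1 at an unadjusted p under 0.05) and a median of -0.11, led by the muscle chaperones Hspb6 (-0.41 ± 0.41, limma adjusted p = 0.655) and Hspb7 (-0.38 ± 0.14, limma adjusted p = 0.23). Hspb6 read 7.52, 7.73 and 9.25 in AKR_F1 and 8.53, 8.64 and 8.55 in DBA_F1, and without AKR_F1 replicate 3 it was called. The low pair of arrays is the pair in which skeletal muscle and squamous epithelium transcripts were low. The 10 tested skeletal muscle genes averaged 6.09, 5.56 and 10.45 on the AKR_F1 arrays and 9.72 to 10.24 on the DBA_F1 arrays, and 10 squamous genes averaged 4.83, 4.89 and 8.83 against 8.36 to 9.07. By limma 0 of 10 were called in either list (1 and 5 at an unadjusted p under 0.05), with the largest differences in Myh1 and Tnnc2, which build fast muscle fibres (-4.28 ± 1.8 and -3.87 ± 1.8), and in Krt13 and Krt4, keratins of inner squamous linings (-5.76 ± 2.2 and -5.24 ± 2). The part of such tissue in Hspb6 was not tested.

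These marker lists were also set beside the members. Hspa1b went with the muscle and squamous genes on some arrays and not on others. AKR_F1 replicate 2, low for both lists, read 10.16 for Hspa1b, and DBA_F1 replicate 1, high for both, read 8.34. Within DBA_F1, replicate 2 was highest for Hspa1a, Hspa1b and both lists (10.24 for muscle and 9.07 for squamous genes). On AKR_F1 replicate 3, the highest array for Hspa1a and Hspa1b, both lists were high as well. Their part in the spread of Hspa1a and Hspa1b was not tested. The 8 tested adipocyte genes had DBA_F1 above in all 8, against 10% of all tested genes. Of the 8, 6 were called, against 1.06% of all tested genes called higher in DBA_F1. They averaged 6.73 to 7.47 in AKR_F1 and 8.25 to 9.28 in DBA_F1. The adipocyte genes thus separated the crosses like Dnaja1, Hsph1 and Hspa8, in the opposite direction. The called genes included Pck1, Fabp4, Adipoq and Cidec, with differences of -3.58 ± 0.55, -1.87 ± 0.35, -1.85 ± 0.30 and -1.71 ± 0.24 (limma adjusted p from 0.016 to 0.0451). Of 7 brown adipocyte genes 0 were called by limma (5 at an unadjusted p under 0.05), with Ucp1 at -4.26 ± 1.1 and Cidea at -2.81 ± 0.72. In whole lung, fewer cells of a type and less RNA per cell cannot be told apart, and the part of adipose RNA in the differences of Dnaja1, Hsph1 and Hspa8 was not tested. The 9 cardiac muscle genes averaged 9.23 to 9.67 on all arrays except DBA_F1 replicate 1, where they averaged 10.82 and where 19 member probe sets were lowest. By limma 0 of the 9 were called (0 at an unadjusted p under 0.05), with Nppa at -1.67 ± 1.2 and Sln at -0.50 ± 0.31. The part of cardiac RNA in those low values was not tested, and without that array the brightest probe sets of Dnaja1 and Hsph1 differed by 0.44 and 0.37. Without it the Hspa8 probe sets 1420623_x_at, 1455789_x_at, 1420622_a_at and 1431182_at differed by 0.25, 0.11, 0.12 and -0.10. All 12 lung identity genes, among them Sftpc, Scgb1a1 and Ager, were tested, and their mean lay between 12.18 and 12.39 on all 6 arrays. By limma the list had 10 of 12 positive differences, a median of 0.13 and 6 genes at an unadjusted p under 0.05. This was the direction of Dnaja1, Hsph1 and Hspa8. The list also holds the endothelial genes Pecam1 and Cldn5, and the part of lung cell content in those differences was not tested. Sftpb, a surfactant protein, was the 1 called gene of that list (0.32 ± 0.057, limma adjusted p = 0.0371).

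Immediate early genes, which cells induce within minutes of a stimulus, peaked on partly other arrays. The 14 tested genes averaged 8.99, 9.17 and 9.72 in AKR_F1, and 8.74, 9.06 and 9.62 in DBA_F1. AKR_F1 replicate 3 was thus high for the immediate early genes and for Hspa1a. DBA_F1 replicate 3 was high for the immediate early genes and for Hspb1, but read 7.19 for Hspa1a, below DBA_F1 replicate 2. The list had 0 of 14 called by limma (1 at an unadjusted p under 0.05), with Ier3 at 0.51 ± 0.13 and Egr2 at 0.26 ± 0.19. Atf3, a stress-induced transcription factor of this list, differed by 0.26 ± 0.58 and read 8.57 on AKR_F1 replicate 3, 8.02 on DBA_F1 replicate 3 and 6.50 to 6.76 on the other arrays.

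The arrays themselves were alike in scale, with medians between 5.46 and 5.49. Pairwise correlations over tested probe sets lay between 0.965 and 0.995. On the first principal component (61.6% of the variance) replicates 1 and 2 of AKR_F1 stood apart, with scores of -40.0 and -39.2 against 8.41 for AKR_F1 replicate 3 and 18.0 to 32.0 for DBA_F1. The signal of actin probe sets at the 3' end exceeded that at the 5' end by 0.30 to 0.50, with AKR_F1 replicate 2 highest and AKR_F1 replicate 3 lowest, and for Gapdh the 3' end was lower by a nearly constant amount on all arrays. No scan date or batch is given in the labels.

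Genes with the profile most like that of the members were sought among 2415 other genes that spanned at least 0.5 log2 units. The reference was the mean of the 10 centred member levels, -0.20, 0.15 and 0.68 on the AKR_F1 arrays and -0.51, 0.07 and -0.19 on the DBA_F1 arrays, which the inducible Hsp70 genes dominate. The T cell co-stimulatory receptor Cd28 had the highest Pearson r over the 6 arrays (0.984), followed by Usp53 (0.974), the thymocyte regulator Tox (0.948), the leukocyte adaptor Lpxn (0.937), P-selectin (Selp, 0.929), E230029C05Rik (0.924), Arid5a (0.919) and the gamma-delta T cell receptor segment Trgv4 (0.918). Cd28 read 6.09, 6.54 and 7.15 in AKR_F1 and 5.89, 6.31 and 6.20 in DBA_F1. Without the 2 arrays farthest from the median profile, AKR_F1 replicate 3 and DBA_F1 replicate 1, r was 0.92 for Cd28 and -0.01 for Arid5a. The genes were picked for this likeness out of many, so the values describe it and carry no test.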

How the data were processed

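Total RNA from lung was hybridised as biotin-labelled target to Affymetrix 3' arrays, 3 per cross. The table the authors deposited holds log2 signals. MAS5 and RMA are the tools listed by the submitters' processing notes, with no version, and which of them made the table is not given in the sources used here. The range of the values gave the scale, and the values were used unchanged. Precision is limited by how few arrays there are.

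Of 45037 probe sets (64 control probe sets left out) 34945 had 1 symbol in the platform annotation, 932 several and 9160 none. The lowest 40% by mean over all arrays (4.72 or less) were left out, which left 27022 probe sets and 13202 genes. The crosses were compared by limma (version 3.58.1, under R version 4.3.3), with group as the only term, a trend in eBayes, two-sided tests and Benjamini-Hochberg adjustment over all tested probe sets. A listed gene was represented by its tested probe set of highest mean. The fit was tested on simulated data. Promoters were searched for exact runs of heat shock element units on both strands.

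Members and lists were chosen with earlier results of these data known. By rule, all members were named, with up to 4 called genes per list or, where none was called, the 2 largest differences, and the 8 genes most like the members; Bag3, Atf3, Hmox1 and the metallothioneins were named after their values were seen. Alternatives were other scalings, filters, variance models, array weights, a replicate block, leaving out each array and other probe set summaries.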

Additional observations from a re-analysis of the deposited data

How the results depend on the processing

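With 1 array left out, the count of called probe sets among all tested ran from 198 to 1171 (707 with all arrays), that among the members from 0 to 1 (3 with all arrays) and that of other chaperone genes from 0 to 3 (1 with all arrays). The 3 were Cacybp, Hspa12b and Hspb6, without AKR_F1 replicate 3. Without DBA_F1 replicate 3 the called gene was Afg3l2 in place of Cacybp. Without a trend in eBayes 0 member probe sets were called, and the cause was not tested. Array weights gave 1198 called probe sets and 2 other chaperone genes, Cacybp and Dnajc8. The replicate block gave 539 probe sets, 3 of them members (all of Dnaja1), and 2 other chaperone genes, Mt1 and Mt2, while Cacybp was not called (limma adjusted p = 0.0578). Over all tested probe sets, same-numbered arrays deviated from their group means with correlations of 0.31, -0.23 and -0.05. The main fit did not take the numbers as pairs. Some genes still rose with the replicate number in both crosses. Immediate early genes averaged 8.99, 9.17 and 9.72 in AKR_F1 and 8.74, 9.06 and 9.62 in DBA_F1. Hspb1, Mt1 and Mt2 rose likewise, whereas Hspa1a and Hspa1b did so only in AKR_F1. The cause of this shared order was not tested. Counts under the other settings were within 1.5 times the values given. Over 16 settings the differences of Hspa8, Hsph1, Dnaja1, Hspd1, Hspe1, Hsp90aa1 and Hspa1b kept their sign. Hspa1a and Dnajb1 turned in 1 setting each, without AKR_F1 replicate 3, and Hspb1 in 2. Array weights lowered Hspa1a to 0.40 and Dnajb1 to 0.09. By its most variable probe set Hspa8 differed by 0.67. The lowest value of that probe set lay under the filter level of 4.72.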

Other observations

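The metallothioneins Mt1 and Mt2, metal-binding proteins that heat, metals and glucocorticoids induce, are in the list of heat-inducible genes and were singled out after their values were seen. Mt2 read 7.94, 8.49 and 9.50 in AKR_F1 and 9.01, 10.14 and 10.28 in DBA_F1, a difference of -1.17 ± 0.46 SE (limma adjusted p = 0.242). Mt1 read 9.48, 9.96 and 10.40 in AKR_F1 and 10.26, 10.99 and 11.06 in DBA_F1, a difference of -0.82 ± 0.28 (limma adjusted p = 0.189). Within each cross the array with the lowest Mt1 and Mt2 was also the one with the lowest Hspa1a. Hmox1, the stress-induced haem oxygenase, was highest on AKR_F1 replicate 3 (8.71) and read 8.29 on DBA_F1 replicate 2, 8.18 on DBA_F1 replicate 3 and 7.49 to 7.63 on the other arrays. With the replicate number as a block, limma called both Mt1 and Mt2.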
